A study of Drosophila melanogaster with 2 samples.

Results

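The genes described here are the Rab genes of *Drosophila melanogaster* in mature oocytes, taken as every row of the deposited expression table whose gene name begins with Rab or RabX followed by a digit. The name pattern found 35 of 16863 genes. Of these, 33 encode Rab GTPases, and the other 2, *Rab3-GAP* and *Rab3-GEF*, encode regulators of Rab3 that are not GTPases themselves. In all, 25 of the 35 were above 0.5 FPKM, the unit of abundance used throughout, in both libraries and could be given an occupancy, comprising 24 GTPases and *Rab3-GAP*. A further 3 were above 0 in at least 1 library but did not pass this minimum, and 7 were listed at 0 in both.

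Rab proteins are small GTPases that mark membrane compartments. In the GTP-bound state they recruit motors, tethers and other effectors that move vesicles and dock them at their target. Exchange factors load them with GTP, GTPase-activating proteins switch them off, and GDI and the Rab escort protein carry their lipid-modified forms through the cytosol. In the fly ovary, Rab5 is required for yolk uptake, Rab11 for the polarity of the oocyte and Rab6 for polarised secretion, and the mature oocyte hands its store of mRNA to the embryo.

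The study compared the RNA bound by ME31B, a DEAD-box helicase linked to translational repression, with total RNA from the same stage. Both libraries came from stage 14 oocytes, the last stage before egg activation, with 1 library from the input lysate and 1 from the immunoprecipitate. The labels give the strain eGFP-Me31B, in *w1118;eGFP-Me31B* flies raised at large scale, whereas the methods name *w1118* flies for the oocytes. Both groups share that genotype, neither was treated, and the age of the flies is not stated. The lysate had been brought to 1.1 mg/ml for the immunoprecipitation. The methods name anti-GFP antibodies, but the label of the immunoprecipitate names none, so that the antibody used is assumed here. RNA recovered with control IgG was not analysed here, and nonspecific recovery is part of each value.

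Levels are given in FPKM, the deposited unit, which scales fragments to transcript length and library size, and are therefore per length. Occupancy is the FPKM in bound RNA divided by the FPKM in the input. The median gene of the 6886 genes above 0.5 FPKM in both libraries had an occupancy of 1.26, or 0.33 on the log2 scale. Relative occupancy below means the log2 occupancy of a gene minus this median, so that 0 is the median gene and 1 or −1 is 2-fold from it. Input RNA and bound RNA below stand for these libraries, input lysate and immunoprecipitate. As there was 1 library of each, no difference was checked in replicates, no error could be attached to a value and no p-value was computed. Read totals were not stated, so the depth behind each value is unknown.

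Oocyte markers were present in both libraries. All 11 markers of the mature oocyte, among them *nos*, *osk* and *gnu*, were above 0.5 FPKM in both libraries. Of 15 follicle cell markers, 12 were above 0.5 FPKM in input RNA and 11 in bound RNA, led by the eggshell gene *Cp15* at 520 and 309 FPKM. The follicle cell regulator *tj* was at 0 in both. None of 7 neuronal markers passed 0.5 FPKM in either library, with *elav* and *nSyb* at 0 in both, and all 4 blood cell markers were at 0. The 5 muscle markers found reached at most 0.93 FPKM in input RNA and 1.63 FPKM in bound RNA. Of these, 4 were above 0.5 FPKM in input RNA and 2 in bound RNA. The 5 gut enzymes summed to 32.7 FPKM in input RNA and 18.8 FPKM in bound RNA. Summed over the list, follicle cell markers had 871 FPKM in input RNA and 505 FPKM in bound RNA, and the part of follicle cell RNA in the Rab values was not tested. In bulk RNA, fewer cells of a type and less RNA per cell cannot be told apart.

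Most Rab GTPase mRNAs measured in the oocyte lay moderately above the median gene in ME31B occupancy. Of the 24 GTPases with a value, 19 were above the median gene and 5 below it, where 50.0% of all 6886 genes were above by construction. Without centring, 21 were above equal FPKM and 3 below it, where 4420 of all 6886 genes were above. The median relative occupancy of the 24 GTPases was 0.56. By a fixed rule of size, 3 GTPases were at least 2-fold above the median gene (*Rab39*, *Rab21* and *Rab2*), against 9.48% of all genes, and 2 were at least 2-fold below it (*Rab27* and *RabX4*), against 15.2% of all genes. *Rab3-GAP* was also 2-fold below, which makes 3 of 25 in each direction for all members with a value. At 3 of 24, or 12.5%, the share above is close to that of all genes. On the scale without centring, 9 members reached a log2 occupancy of 1 and none lay at or under −1, against 20.3% and 9.15% of all genes. A 1.5-fold rule gave 11 members above and 4 below, against 23.8% and 26.3% of all genes, and a 3-fold rule gave none in either direction, against 1.79% and 5.95%. With a pseudocount of 0.5 FPKM, 3 of the 25 members were 2-fold above and none 2-fold below, against 9.28% and 14.0% of all genes. When the minimum was also dropped these were 9 and none of 35, against 8.66% and 3.93% of all 16863 genes. These shares and their median take in 7110 genes at 0 in both libraries. The 9 members were the same as without centring, where the share above was 20.3%. A minimum of 5 FPKM left 23 members, with 2 above and 1 below, against 8.17% and 13.2%. Of all genes called 2-fold in either direction, 38.4% were on the upper side with centring and 68.9% without it. Summed over all 35 genes, the Rab family made up 0.143% of the FPKM in input RNA and 0.235% in the immunoprecipitate. Its summed FPKM in the immunoprecipitate was 1.74 times that in the input. This ratio was 1.05 for the sum of all genes and 1.26 for the median gene.

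**Figure D1:**
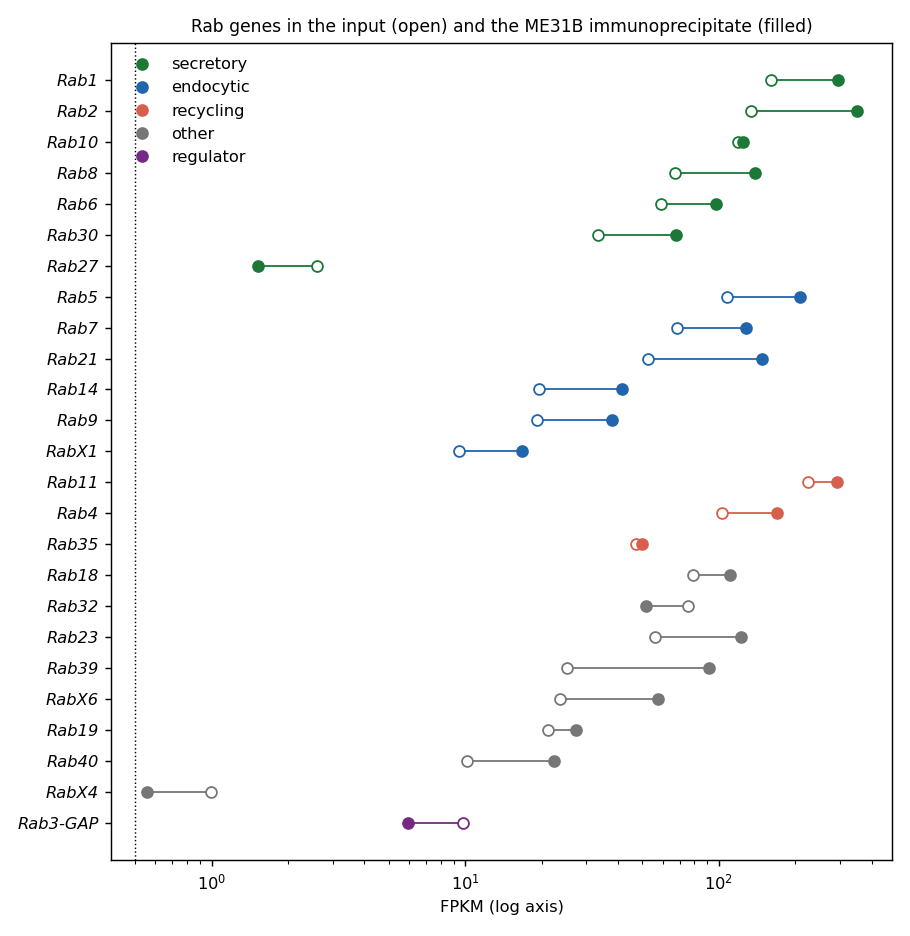
FPKM of each of the 25 Rab genes above 0.5 FPKM in both libraries, on a log axis, with an open circle for the input and a filled circle for the ME31B immunoprecipitate and the dotted line at 0.5 FPKM. Values in the input run from 0.99 for *RabX4* to 225 for *Rab11*, and the filled circle lies to the left of the open one for 4 genes, *Rab27*, *Rab32*, *RabX4* and *Rab3-GAP*.

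Coordinates here are those of Release 6 of the genome (dm6), from the RefSeq gene table. In the input, *Rab11* was the most abundant Rab mRNA, at rank 527 of 6886 genes, followed by *Rab1*, *Rab2*, *Rab10*, *Rab5* and *Rab4*. This order differed in the immunoprecipitate, where *Rab2* was first, ahead of *Rab1* and *Rab11*. *Rab21* went from place 13 of 25 to place 6, whereas *Rab32* went from place 8 to 16 and *Rab10* from place 4 to 9. Neighbours in either order cannot be told apart without replicates. Across the 24 GTPases, log2 occupancy had a Spearman rho of −0.02 with input FPKM and of −0.15 with genomic span. Across the 21 GTPases with an input of at least 10 FPKM these were −0.39 and −0.25, so that the first rests on 3 low genes. Both describe these genes in 1 pair of libraries.

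Among the secretory Rabs, *Rab2* had the highest occupancy. *Rab2* (chr2R:6696739-6699469), which acts at the Golgi and in the fusion of late vesicles with lysosomes, had 134 FPKM in input RNA and 350 FPKM in bound RNA. Its relative occupancy of 1.05 was higher than that of 91.6% of all genes, and among genes above 5 FPKM it was 0.999, just under 2-fold. *Rab1* (chr3R:21266029-21269060), which drives traffic from the endoplasmic reticulum to the Golgi, had 161 FPKM in input RNA and 296 FPKM in bound RNA. The more abundant of this Golgi pair in the input was thus the less abundant in the immunoprecipitate, with *Rab2* at 0.833 times *Rab1* in the input and 1.19 times in the immunoprecipitate. The span of *Rab1* overlaps an antisense RNA, CR45798, over 50.8% of its length, but that RNA had only 0.80 FPKM in input RNA and 1.80 FPKM in bound RNA.

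*Rab8* and *Rab10*, which both act in transport from the Golgi to the plasma membrane, fell on either side of the median gene when occupancies were centred. *Rab8* had 67.3 FPKM in input RNA and 138 FPKM in bound RNA, a relative occupancy of 0.70. *Rab10* (chrX:20251338-20254691), which in follicle cells directs basement membrane secretion, had 119 FPKM in input RNA and 125 FPKM in bound RNA, a relative occupancy of −0.27. *Rab10* was 1.77 times as abundant as *Rab8* in the input and 0.902 times as abundant in the immunoprecipitate. Without centring, the log2 occupancy of *Rab10* was 0.07, so that its side of 0 depends on the scale, while its place below *Rab8* does not.

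The 2 other well expressed secretory Rabs were above the median gene. *Rab30*, a Golgi Rab, had 33.3 FPKM in input RNA and 67.7 FPKM in bound RNA, a relative occupancy of 0.69. *Rab6* had 59.2 FPKM in input RNA and 97.7 FPKM in bound RNA, a relative occupancy of 0.39. The Rabs of regulated secretion were low or absent. *Rab27*, which serves the release of secretory granules, had 2.60 FPKM in input RNA and 1.53 FPKM in bound RNA, and its relative occupancy of −1.10 became −0.93 with a pseudocount of 0.5 FPKM. *Rab3*, the synaptic vesicle Rab, had 0.073 FPKM in input RNA and 0.090 FPKM in bound RNA. *Rab26*, a Rab of secretory granules and synaptic vesicles, was listed at 0 in the input and at 0.045 FPKM in bound RNA. *Rab3-GEF*, an exchange factor of Rab3, was at 0 in the input and 0.011 FPKM in bound RNA, and none of these 3 was given an occupancy.

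The 6 Rabs classed here as endocytic lay above the median gene. *Rab32* and *Rab39*, which are linked to the lysosomal system and are described with other roles, could also be counted here, and then 7 of 8 were above it. *Rab21* (chrX:23012140-23013409), which acts at early endosomes and in integrin traffic, had 52.5 FPKM in input RNA and 148 FPKM in bound RNA. Its relative occupancy of 1.16 exceeded that of 93.7% of all genes. *Rab5* (chr2L:2359142-2365273), the Rab of early endosomes, had 108 FPKM in input RNA and 209 FPKM in bound RNA, a relative occupancy of 0.62. *Rab7*, which marks late endosomes and lysosomes, had 68.6 FPKM in input RNA and 128 FPKM in bound RNA, a relative occupancy of 0.57. Without a log scale or centring, the occupancy of these early and late endosomal Rabs was 1.94 for *Rab5* and 1.87 for *Rab7*.

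The remaining endocytic Rabs were less abundant. *Rab9*, which acts in transport from late endosomes to the Golgi, had 19.2 FPKM in input RNA and 38.1 FPKM in bound RNA, a relative occupancy of 0.65. *Rab14*, a Rab of endosomes and phagosomes, had 19.5 FPKM in input RNA and 41.5 FPKM in bound RNA, at 0.75. *RabX1*, also called *chrowded*, had 9.49 FPKM in input RNA and 16.8 FPKM in bound RNA, at 0.49. A noncoding RNA, CR44851, overlaps 39.0% of the span of *Rab14* but was listed at 0 FPKM in both libraries.

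The 3 recycling Rabs lay closer to the median gene. *Rab11* (chr3R:21111408-21116146), the Rab of recycling endosomes, had 225 FPKM in input RNA and 292 FPKM in bound RNA, a relative occupancy of 0.04. *Rab4*, which serves fast recycling from early endosomes, had 103 FPKM in input RNA and 170 FPKM in bound RNA, at 0.39. *Rab35* (chrX:20155766-20159872), which acts in recycling to the plasma membrane and on actin, had 47.1 FPKM in input RNA and 49.9 FPKM in bound RNA, at −0.25. The values of *Rab11* and *Rab35* lie so near the median gene that their side of it changes with the scale, *Rab35* to 0.08 without centring and *Rab11* to −0.01 among genes above 5 FPKM.

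Side by side, the median relative occupancy was 0.54 over 7 secretory Rabs, 0.64 over 6 endocytic Rabs and 0.04 over 3 recycling Rabs. The secretory Rabs ranged from −1.10 to 1.05, which covers the whole range of the recycling Rabs from −0.25 to 0.39. The endocytic Rabs, from 0.49 to 1.16, did not overlap the recycling Rabs. With *Rab32* and *Rab39* counted as endocytic, their median was still 0.64 but their range, from −0.88 to 1.52, covered that of the recycling Rabs. The recycling class has only 3 members, and the difference between classes was not tested, since genes are not replicates of a condition. Median input levels ran in another order, at 103 FPKM for recycling, 67.3 FPKM for secretory and 36.0 FPKM for endocytic Rabs.

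**Figure D2:**
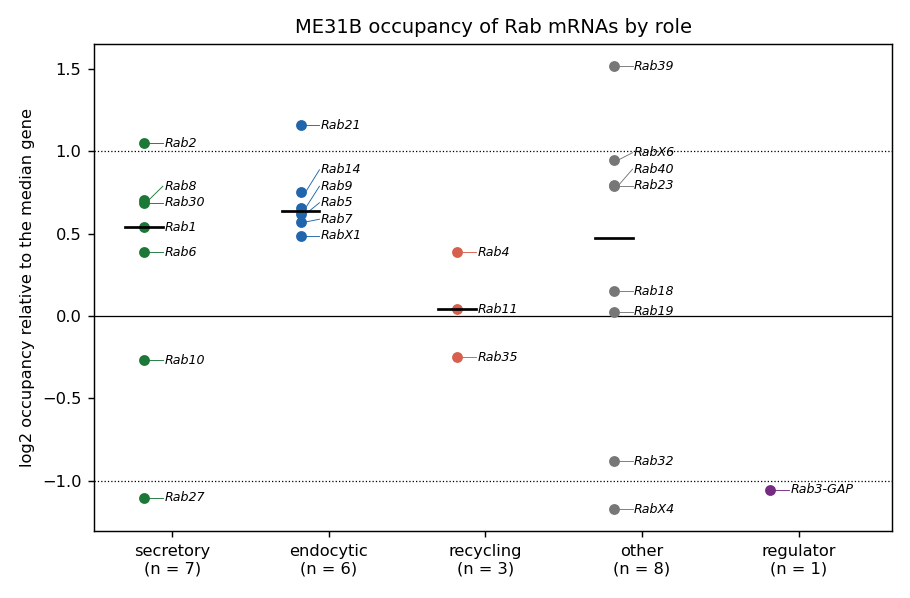
Log2 occupancy relative to the median gene for each of the 25 Rab genes, grouped by role, with a bar at the median of each class of more than 1 gene and dotted lines at 2-fold above and below the median gene. The 6 endocytic Rabs lie between 0.49 and 1.16 and the 3 recycling Rabs between −0.25 and 0.39; without centring all values shift up by 0.33, and *Rab10* and *Rab35* move above 0.

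The widest spread of occupancy was among Rabs of other or little-studied roles. *Rab39* (chrX:7734923-7736756), a Rab linked to late endosomes and lysosomes, had 25.2 FPKM in input RNA and 91.1 FPKM in bound RNA. Its relative occupancy of 1.52 was the highest of the family and exceeded that of 97.9% of all genes, and its span overlaps no other annotated gene. *Rab32* (chr2R:9177864-9186342), which is needed for lysosome-related organelles such as pigment granules, had 75.3 FPKM in input RNA and 51.6 FPKM in bound RNA. At −0.88 it was the lowest of the 21 GTPases with an input of at least 10 FPKM and the only one of them with less FPKM in bound RNA than in the input. These 2 Rabs, both linked to the lysosomal system, differed by 2.40 on the log2 scale. *Rab32* was 2.98 times as abundant as *Rab39* in the input and 0.566 times as abundant in the immunoprecipitate.

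Several Rabs outside the secretory and endocytic classes had an occupancy close to theirs. *Rab23*, which acts in planar cell polarity, had 56.0 FPKM in input RNA and 122 FPKM in bound RNA, a relative occupancy of 0.79. *Rab40*, a Rab with a SOCS box that can dock to cullin ligases, had 10.2 FPKM in input RNA and 22.3 FPKM in bound RNA, at the same 0.79. *RabX6*, a little-studied fly Rab, had 23.7 FPKM in input RNA and 57.7 FPKM in bound RNA, at 0.95. The span of *RabX6* shares 32.5% of its length with the SNARE gene *Vti1a*, which had 58.4 FPKM in input RNA and 128 FPKM in bound RNA, and reads in the shared part may be counted for either.

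Near the median gene were *Rab18* and *Rab19*. *Rab18*, a Rab of the endoplasmic reticulum and lipid droplets, had 79.1 FPKM in input RNA and 111 FPKM in bound RNA, a relative occupancy of 0.15. *Rab19*, a Golgi-linked Rab, had 21.2 FPKM in input RNA and 27.2 FPKM in bound RNA, at 0.03. Both were on the other side of 0 when set against genes of the same span, at −0.42 and −0.33. *RabX4* (chr3R:24826665-24828409) passed the minimum narrowly, with 0.99 FPKM in input RNA and 0.55 FPKM in bound RNA. It was the lowest of the family at −1.17, and with a pseudocount of 0.5 FPKM it stood at −0.82. Its span overlaps over 7.51% of its length that of CG31357, the CTLH ligase subunit homologous to MAEA, which had 25.2 FPKM in input RNA and 20.1 FPKM in bound RNA. The 7 genes listed at 0 in both libraries were *RabX2*, *RabX5* and the fly-specific Rab9-like genes *Rab9D*, *Rab9Db*, *Rab9E*, *Rab9Fa* and *Rab9Fb*.

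Across all protein-coding genes of these libraries, occupancy was lower for genes with a longer genomic span, introns included, with a Spearman rho of −0.45 across 6550 genes. Rab genes were therefore also set beside protein-coding genes of like span. The length of the mRNA was not matched. Of the 24 GTPases, 18 lay above the median of protein-coding genes in their own span bin, where 49.9% of genes did, and the median difference was 0.59. In the bin from 2000 to 4000 bp, which holds 11 Rab genes, the median relative occupancy was 0.65 for the Rab genes and −0.05 for 1832 protein-coding genes. From 1000 to 2000 bp it was 0.39 for 7 Rab genes and 0.35 for 1767 protein-coding genes, so that there the medians were similar. In the bin from 4000 to 8000 bp it was 0.04 for 5 Rab genes and −0.44 for 1164 protein-coding genes. The bins with a single Rab gene went the other way. Under 1000 bp, *Rab18* was at 0.15 beside a median of 0.57 for 655 protein-coding genes, and from 8000 to 16000 bp *Rab32* was at −0.88 beside −0.43 for 564.

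The span moved some members more than others. Set against genes of the same span bin, *Rab39* stood at 1.16, *Rab2* at 1.10 and *Rab21* at 0.80, so that the 2-fold call of *Rab21* ended. *Rab23* and *Rab5*, which have longer genes of 5381 and 6132 bp, reached 1.23 and 1.06 on that scale. *Rab11* stood at 0.48 and *Rab35* at 0.19, and the median of the recycling Rabs at 0.19 remained below the 0.75 of the endocytic Rabs and the 0.59 of the secretory Rabs. By this measure 4 members were 2-fold above and 2 were 2-fold below, against 7.59% and 12.0% of genes. Below, these were *RabX4* at −1.53 and *Rab27* at −1.05, whereas *Rab3-GAP* was at −0.61.

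Genes that act on or with Rabs had, pooled over 8 groups, a lower median occupancy than the GTPases, although the median of 1 group, TRAPP, was higher. Of 64 such genes with a value, 22 were above the median gene, 4 were at least 2-fold above it and 14 were at least 2-fold below it, or 6.25% and 21.9%, beside 9.48% and 15.2% of all genes. Their median relative occupancy was −0.39. Set against genes of the same span, 24 of the 63 matched genes were above the median of their bin. *SIDL*, *Sec3*, *Sec8*, CG10144, *Vps39* and *Gmap* were then no longer 2-fold below, whereas the others of the 14 were. *Vps11* and *Vps45* stayed 2-fold above on that scale, whereas CG7787 and *Trs20* did not. Of all matched genes, 7.59% were 2-fold above and 12.0% were 2-fold below on it. *Rab3-GAP* (chr2L:12058304-12063184), found by the name pattern but a subunit of the GTPase activator of Rab3, had 9.78 FPKM in input RNA and 5.94 FPKM in bound RNA, a relative occupancy of −1.05 that became −0.996 with a pseudocount of 0.5 FPKM.

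Exchange factors were set beside the Rab each is known to act on, in a choice of pairs made after their values were seen. In 7 of 8 such pairs the GTPase had the higher occupancy, by at least 2-fold in 4 of them. The pairs leave out *Rab1*, at 0.54, and TRAPP, its exchange and tethering complex. There, 6 subunits lay above *Rab1*, from 0.70 to 1.29, and 3 lay below it, from −1.66 to −0.95. As groups, 79.2% of the Rab GTPases and 37.5% of these exchange factors were above the median gene. Whether matched pairs differ from unmatched ones was not tested. The largest gap, of 3.65 on the log2 scale, was between *Rab21* and *Sbf*, a DENN-domain exchange factor of Rab21, which had 7.73 FPKM in input RNA and 1.73 FPKM in bound RNA and stood at −2.49. *Rich*, which acts on Rab6, stood at −2.12, with 14.8 FPKM in input RNA and 4.31 FPKM in bound RNA, and *Rab6* was at 0.39. *Crag*, which acts on Rab10, stood at −2.19, with 20.0 FPKM in input RNA and 5.52 FPKM in bound RNA, and *Rab10* was 1.92 above it. *Rabex-5*, an exchange factor of Rab5, stood at 0.13, which is 0.49 below *Rab5*.

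*Mon1* and *Ccz1*, the partners that load Rab7, were at 0.13 and −0.47, which is 0.44 and 1.04 below *Rab7*. *pcs*, an exchange factor of Rab11, was at −0.24 and 0.28 below *Rab11*. The exception was CG7787 (*strat*), which acts with Rab8 and had 95.1 FPKM in input RNA and 279 FPKM in bound RNA. Its relative occupancy of 1.22 was 0.52 above that of *Rab8*; its span is 958 bp, and set against genes of like span it stood at 0.65, below the 0.75 of *Rab8*. In these 8 pairs the GTPase was also the more abundant mRNA in the input in 7.

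Among 10 GTPase-activating genes, 1 was 2-fold below the median gene, *plx* at −2.11, and the highest was *wkd* at 0.41. This 10% of the list stands beside 15.2% of all genes. The level of *plx* was low, at 2.63 FPKM in input RNA and 0.77 FPKM in bound RNA. *Evi5*, which acts on Rab11, was at −0.99, which is 1.03 below *Rab11*. *sky*, which acts on Rab35, was at −0.03, which is 0.22 above *Rab35*. *Gdi*, which extracts Rabs from membranes, had 275 FPKM in the input, more than any Rab, and 431 FPKM in bound RNA, a relative occupancy of 0.31. *Rep*, the Rab escort protein, was at −0.55.

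The exocyst and the tethers of endosomes and lysosomes, which Rabs recruit, both had a median below the median gene. In each group 2 genes were above it. Of 8 exocyst subunits, which tether secretory vesicles at the plasma membrane, 4 were 2-fold below the median gene, *Sec5* at −1.67, *Sec6* at −1.13, *Sec8* at −1.11 and *Sec3* at −1.02, and the highest was *Exo70* at 0.30. This was 50.0% of the list, beside 15.2% of all genes. Set against genes of the same span, *Sec5* at −1.62 and *Sec6* at −1.08 stayed 2-fold below. *Sec3* at −0.97 and *Sec8* at −0.67 did not. Of 9 genes of HOPS, CORVET and related complexes, which tether endosomes and lysosomes, 2 were 2-fold below, CG10144 (*Vps8*) at −1.13 and *Vps39* at −1.01. These 22.2% stand beside 15.2% of all genes. Against genes of the same span, CG10144 was at −0.69 and *Vps39* at −0.96, so that neither stayed 2-fold below. *Vps11*, one of the core subunits that both complexes share, was 2-fold above at 1.26, with 35.9 FPKM in input RNA and 108 FPKM in bound RNA. The other core subunits were below the median gene, *Vps16A* at −0.70, *dor* (Vps18) at −0.75 and *car* (Vps33) at −0.65. The median was −0.80 for the exocyst and −0.70 for the endosomal tethers.

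The placement of subunits of TRAPP, the exchange and tethering complex of Rab1, differed with gene span, around a median of 0.81. Its 6 subunits with a span under 4000 bp lay between 0.70 for *Trs33* and 1.29 for *Trs20*, which had 65.0 FPKM in input RNA and 200.4 FPKM in bound RNA. Its 3 subunits with longer genes lay between −1.66 for *gry* and −0.95 for *l(3)76BDm*, with *SIDL* at −1.26. Set against genes of the same span bin, the first 6 still lay above 0, from 0.13 to 0.86, and the latter 3 below it, from −1.22 to −0.50. The spans of *gry*, *SIDL*, *l(3)76BDm*, *Trs31*, *Trs33* and *Bet3* overlap other genes. So do those of *Sbf*, CG7787, *Ccz1*, *pcs*, *plx*, *Evi5*, *sky*, *Rep*, *Sec5*, *Sec8*, *Vps11*, *dor*, *Exo70* and *Gmap*, and of *Arl1* and *Arl5* below. Reads in the shared parts may be counted for either.

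Among 10 endosomal factors, *Vps45*, which acts in vesicle fusion at endosomes, was 2-fold above the median gene at 1.27. *Rme-8*, an endosomal J-domain protein, was 2-fold below it at −2.36. The 10% of this list in each direction stand beside 9.48% of all genes above and 15.2% below. Of 8 golgins, the coiled-coil tethers of the Golgi, *Gmap* was 2-fold below at −1.60 and *cbs* was the highest at 0.60. For golgins the share below was 12.5%, beside the same 15.2%.

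Some small GTPases of other families, listed after the Rab values had been seen, were set beside the Rabs; not every family was included. The median was 0.69 over 10 Arf, Arl and Sar1 genes, which act in coat assembly and vesicle traffic, and 0.53 over 6 Ras-like genes. *Ran*, the GTPase of nuclear transport, stood at 0.52. All of these 17 genes were above the median gene, beside 19 of the 24 Rab GTPases. Of the 17, 3 were at least 2-fold above the median gene (*Arl4*, *Arl5* and *Arl1*) and none was at least 2-fold below it. Among the 24 Rab GTPases these counts were 3 and 2. The 17.6% above stand beside 9.48% of all genes, and 15.2% of all genes were 2-fold below.

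**Figure D3:**
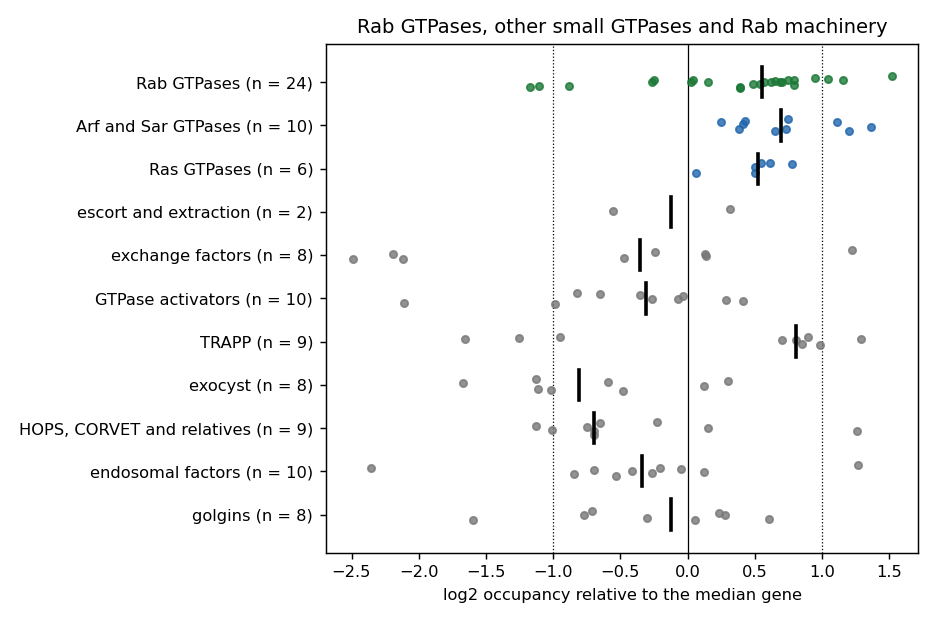
Log2 occupancy relative to the median gene for each gene of the Rab GTPases (green), of 2 other small GTPase groups (blue) and of 8 groups of Rab regulators, tethers and related factors (grey), with a black bar at the median of each group and dotted lines at 2-fold from the median gene. The median is 0.56 for Rab GTPases and 0.69 for Arf and Sar GTPases, against −0.80 for the exocyst, −0.35 for exchange factors and 0.81 for TRAPP, the highest of the groups; without centring all values shift up by 0.33.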

How the data were processed

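RNA from input and immunoprecipitate was depleted of rRNA, and stranded libraries were read from a single end. The authors trimmed the reads and then used STAR 2.5.2a for mapping to dm6 and Cufflinks 2.2.1 for gene levels, per the labels and methods. The table the authors deposited holds 1 FPKM column for each library. No source states the annotation release or whether strand entered the counting, so overlapping genes may share reads. Occupancy followed the methods, as immunoprecipitate over input FPKM, with their minimum of 0.5 FPKM applied here to both libraries and no pseudocount. Centring on the median of the 6886 genes left was added here. Genes were counted by a rule of 2-fold and not tested, since each condition has 1 library. The computation was tested on simulated data. Symbols, spans and coordinates come from the RefSeq gene table of Release 6, which matched 35 of 35 Rab genes and 6839 of the 6886. All Rab genes are named; of the Rab-pathway genes, the highest and lowest of each group at an input of at least 1 FPKM and each gene 2-fold from the median gene, with others given as pairs or examples after their values were seen. Some genes of the Rab-pathway and small GTPase lists are not reported here. Members and lists were chosen with earlier results of these data known. Python 3.11.15, numpy 2.4.6, pandas 2.3.3, scipy 1.17.1 and matplotlib 3.10.9 were used.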

Additional observations from a re-analysis of the deposited data

How the results depend on the processing

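The settings without the regulators, without overlapped genes and with *Rab32* and *Rab39* counted as endocytic were chosen after the data were seen. No paired analysis was possible because there is 1 input and 1 immunoprecipitate. The counts of members 2-fold above and 2-fold below the median gene, 3 and 3, became 9 and 0 without centring (20.3% and 9.15% of all genes), 9 and 0 of 35 with no minimum and a pseudocount of 0.5 FPKM (8.66% and 3.93% of all genes), 3 and 0 of 25 with that pseudocount and the same minimum (9.28% and 14.0%), 2 and 1 of 23 with a minimum of 5 FPKM (8.17% and 13.2%), 11 and 4 by a 1.5-fold rule (23.8% and 26.3% of all genes) and 0 and 0 by a 3-fold rule (1.79% and 5.95%). The shares with no minimum include the genes at 0 in both libraries. The medians of all members and of secretory, endocytic and recycling Rabs, in that order, were 0.87, 0.87, 0.97 and 0.37 without centring; 0.37, 0.72, 0.96 and 0.37 with no minimum, where genes at 0 enter; 0.58, 0.58, 0.67 and 0.081 with a minimum on the input only and a pseudocount of 0.1 FPKM; 0.52, 0.57, 0.59 and −0.0084 with a minimum of 5 FPKM; and 0.59, 0.59, 0.75 and 0.19 against genes of the same span bin. With a pseudocount of 0.5 FPKM and the same minimum they were 0.55, 0.55, 0.64 and 0.053. The median of all members was 0.56 without the regulators and 0.59 over the 18 members that overlap no other gene. The recycling median was the lowest of the 3 classes in each setting above that gives class medians. Centring on protein-coding genes moved no value by more than 0.01.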
